A study of Callithrix jacchus with 20 samples.

Results

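The clustered protocadherin genes were taken as every gene whose symbol begins with PCDHA, PCDHB, PCDHGA, PCDHGB or PCDHGC followed by a number or a C-type name, and 13 of the 23949 genes in either expression table met this rule. They comprised 1 gene of the alpha cluster (PCDHA2), 11 genes of the beta cluster (PCDHB1 to PCDHB6, PCDHB8 and PCDHB11 to PCDHB14) and 1 gene of the gamma cluster (PCDHGB3). The stem cell table listed 12 of the 13 and the embryoid body table another set of 12, with 11 in both. PCDHB1 was listed only at the stem cell stage and PCDHB12 only in embryoid bodies. Neither table listed any gene at 0 in all its libraries, so an unlisted gene may have been at 0 throughout, which is not stated. No C-type gene of the alpha or gamma cluster was listed under such a symbol.

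Clustered protocadherins are cadherin-family adhesion proteins of the cell surface, encoded in 3 neighbouring gene arrays named alpha, beta and gamma. In the alpha and gamma arrays each variable exon has its own promoter and is spliced to constant exons, whereas each beta gene is a single exon of its own. Individual neurons transcribe a small combination of these genes, chosen through promoter DNA methylation, CTCF and cohesin, and the combination gives a neuron an identity that it uses to tell its own branches from those of other cells.

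The libraries were poly(A) RNA-seq of common marmoset (Callithrix jacchus) cultures, 20 in all and 1 per culture, so that a replicate is a cell line. The fibroblast library was a wild-type somatic donor culture. ntEB WT (#30, #53 and #61), ntEB GFP (#24 and #50) and control EB (#13, #17 and #37) were embryoid bodies (EBs), aggregates in which stem cells differentiate. ntESC WT (#30, #53 and #61) and ntESC GFP (#24, #50, #54 and #55) were embryonic stem cell lines from blastocysts cloned by somatic cell nuclear transfer (SCNT), WT marking wild-type donors and GFP donors with the CAG-EGFP transgene, which a ubiquitous promoter drives. Per the labels, the cloned embryos received mouse Kdm4d mRNA, which encodes a histone H3K9 demethylase, the histone deacetylase inhibitor trichostatin A and a G9a inhibitor, so that these agents and cloning itself cannot be told apart. Control ESC lines were wild type and came from natural fertilization (NAT, #13 and #37) or in vitro fertilization (IVF, #15 and #17). A number names the same cell line at both stages, and 8 lines had libraries of both.

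Values are TPM, a measure of transcript abundance per length of transcript whose sum over genes is 1000000 in each library, and levels of the 2 tables, which were made separately, were compared because each library is scaled on its own. Markers matched the labels with exceptions that bear on later values. The summed TPM of 9 listed pluripotency genes was 24.6 to 93.5 in ntEB WT, 166 in ntEB GFP #50, 5868 in ntEB GFP #24 and 91.4 to 139.5 in control EB, against 3815 to 8040 in ntESC WT, 6858 to 9559 in ntESC GFP and 7738 to 9649 in control ESC. ntEB GFP #24 thus stood apart from the other EBs. In ntESC WT #30 and #53 the pluripotency sums were 4186 and 3815 TPM, with 9 of the 9 genes below all control ESC lines. Their summed fibroblast and mesenchyme markers were 1315 and 1133 TPM, against 289.0 to 497.5 TPM in control ESC. Of these 12 markers 8 in line #30 and 7 in line #53, DCN and LUM among them, were above all control ESC lines, and 3 in both, COL1A1, THY1 and PDGFRB, were below them. Of 12 neuron markers 10 were listed, and their sums were 12.4 to 97.4 TPM in ntEB WT, 83.0 and 269 TPM in ntEB GFP and 24.2 to 32.7 TPM in control EB, against 313.5 to 485.5 TPM in control ESC. In control ESC the sums were mainly NEFL, NEFM and INA, which had at most 3.63, 3.27 and 1.08 TPM in control EB. SYT1 went the other way, with 8.20 to 13.3 TPM in control EB against 0.902 to 1.45 TPM in control ESC. By mean log2 level, 4 of the 10 were higher and 6 lower in control EB than in control ESC.

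The clustered protocadherins listed by symbol were weakly expressed in every culture. Genes of the clusters that carry no such symbol are not covered by these values. Among 240 pairs of a member and a library, 206 were above 0, 42 reached 0.5 TPM, 17 reached 1 TPM and 2 reached 2 TPM. Only PCDHB2 (in 8 libraries), PCDHB14 (in 5) and PCDHGB3 (in 4) reached 1 TPM anywhere, and the other 10 members stayed below it in every library. The highest value was 2.93 TPM, of PCDHB14 in ntEB WT #30. The median member had a mean of 0.174 TPM in the stem cell table and 0.136 TPM in the EB table, against 4.15 and 4.36 TPM for the median of all genes. Only reads with a single place in the genome were counted, and these genes resemble each other closely, so reads shared between them were lost to an extent that is not known.

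**Figure D1:**
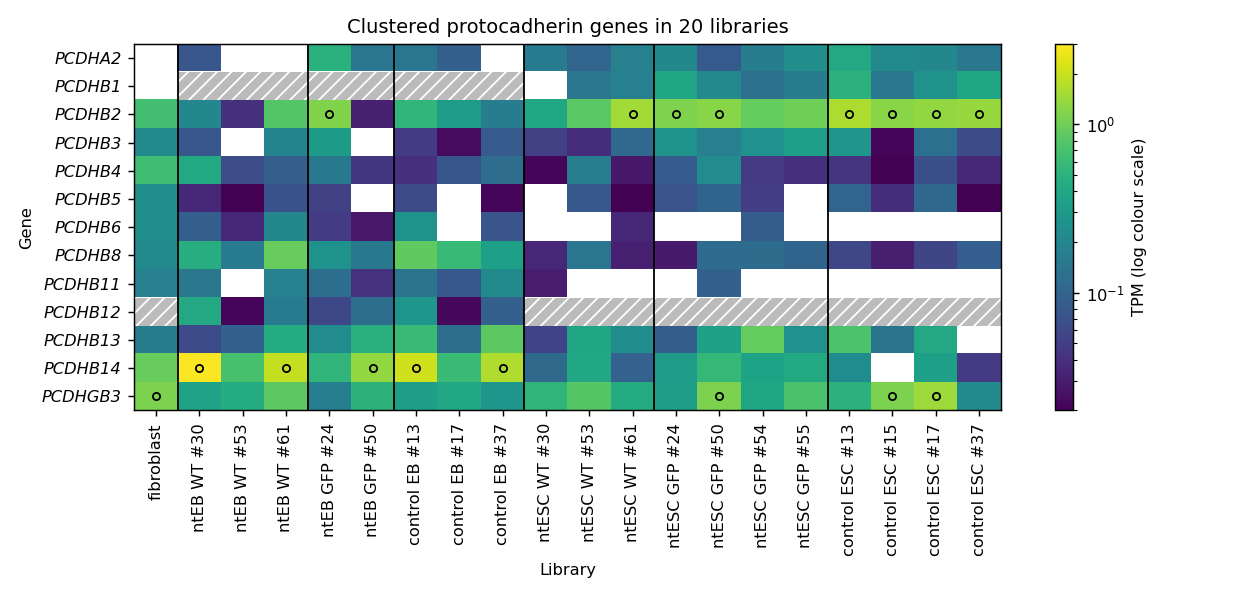
TPM of the 13 clustered protocadherin genes (rows) in the 20 libraries (columns), on a log colour scale from 0.02 to 3 TPM, with white for 0, hatched grey for a gene not listed in that table and a circle for 1 TPM or more. The circles fall on PCDHB2 in stem cell lines and ntEB GFP #24, on PCDHB14 in EBs, and on PCDHGB3 in 3 stem cell lines and the fibroblast.

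Each library had 0 to 2 members at 1 TPM or more, while 58.6% to 68.7% of all listed genes were at or above this level. The fibroblast had PCDHGB3 alone. Among EBs, PCDHB14 was the single member at this level in ntEB WT #30 and #61, ntEB GFP #50 and control EB #13 and #37, PCDHB2 was the single one in ntEB GFP #24, and ntEB WT #53 and control EB #17 had none. Among stem cell lines, ntESC WT #61, ntESC GFP #24 and control ESC #13 and #37 had PCDHB2 alone, ntESC GFP #50 and control ESC #15 and #17 had PCDHB2 with PCDHGB3, while no member reached it in lines #30 and #53 of ntESC WT or in lines #54 and #55 of ntESC GFP. PCDHB2 was thus detected in 4 of 4 control ESC lines, 2 of 4 ntESC GFP lines and 1 of 3 ntESC WT lines, with ntESC GFP #54 and #55 just under the threshold at 0.921 and 0.994 TPM. Summed over all listed members, the level was 4.6 TPM in the fibroblast, 1.57 to 5.81 TPM in ntEB WT, 2.87 and 3.58 TPM in ntEB GFP and 2.33 to 5.43 TPM in control EB. The sums at the stem cell stage were 1.4 to 3.08 TPM in ntESC WT, 2.91 to 4.28 TPM in ntESC GFP and 2.39 to 4.47 TPM in control ESC, so that the ranges of all groups with replicates overlapped.

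The low values came in whole steps. For all 13 members every value lay within 0.05 of a whole multiple of a step particular to the gene, after scaling for relative depth, and 1 TPM held 44 to 116 steps. PCDHB14 covered 0 to 137 steps over the 20 libraries, PCDHB2 2 to 90 and PCDHGB3 10 to 121, whereas PCDHB6 never exceeded 14 and PCDHB11 never exceeded 16. Of the 206 values above 0, 75.2% were even numbers of steps. Relative to control ESC #13, depth was 0.682 in ntEB GFP #24 and 0.744 to 1.15 in the other libraries. Whether a step is 1 read is not given in the sources used here, so no counting interval was computed.

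Whether cloning altered these genes in stem cells was asked by comparing ntESC WT and ntESC GFP with control ESC, the same 4 control lines in both. Only PCDHB2 and PCDHGB3 passed the filter of a mean of 0.5 TPM in this fit, and neither differed between the groups by limma with Benjamini-Hochberg adjustment over 16118 genes. PCDHB2 had 0.402, 0.826 and 1.5 TPM in ntESC WT #30, #53 and #61 and 1.13, 1.22, 0.921 and 0.994 TPM in ntESC GFP #24, #50, #54 and #55, against 1.62, 1.23, 1.32 and 1.39 TPM in control ESC #13, #15, #17 and #37. The lines with the lowest level, #30 and #53, were those with the low pluripotency sums and the high mesenchyme sums, and the part of either in the difference was not tested. The log2 difference was -0.71 ± 0.37 (SE, n = 3 and 4) for ntESC WT (adjusted p = 0.31 by limma) and -0.35 ± 0.35 (n = 4 and 4) for ntESC GFP (adjusted p = 0.689 by limma). Without ntESC WT #61 the difference for ntESC WT was -1.12 and passed (adjusted p = 0.0455 by limma).

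PCDHGB3 had 0.534, 0.799 and 0.434 TPM in ntESC WT #30, #53 and #61 and 0.334, 1.12, 0.386 and 0.714 TPM in ntESC GFP #24, #50, #54 and #55. In control ESC it had 0.503 and 0.221 TPM in the NAT lines #13 and #37 and 1.13 and 1.43 TPM in the IVF lines #15 and #17. The ntESC values lay inside the range of the control lines, and the IVF lines were above both NAT lines. The log2 differences were -0.21 ± 0.58 for ntESC WT and -0.20 ± 0.54 for ntESC GFP (SE; adjusted p = 0.857 and 0.896 by limma). Over all genes 0.0931% of 16118 were called in ntESC WT and 0.441% in ntESC GFP. At an unadjusted p under 0.05, 0 of the 2 members passed in either comparison, against 19.3% of all genes in ntESC WT and 13.8% in ntESC GFP.

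The members below the filter had low levels that varied among lines. PCDHA2, the only alpha gene, had 0.103 to 0.177 TPM in ntESC WT and 0.0829 to 0.238 TPM in ntESC GFP, against 0.149 to 0.415 TPM in control ESC. PCDHB13 varied widely among lines, with 0.0546 to 0.381 TPM in ntESC WT and 0.0878 to 0.917 TPM in ntESC GFP, against 0 to 0.726 TPM in control ESC. PCDHB1 had 0 to 0.177 TPM in ntESC WT and 0.127 to 0.378 TPM in ntESC GFP, against 0.149 to 0.498 TPM in control ESC. PCDHB6 and PCDHB11 were listed at 0 in all 4 control ESC lines and above 0 in 2 ntESC lines each, at 0.0951 TPM or less. In a fit without the filter, none of the 12 listed members was called in either comparison by limma, and 1 had an unadjusted p under 0.05 in ntESC WT and 2 in ntESC GFP, against 16.3% and 12.6% of all genes.

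EBs from cloned and fertilized lines were compared in the same way. PCDHB14 was the only member that passed the filter in the EB fit, and it had 2.93, 0.692 and 1.91 TPM in ntEB WT #30, #53 and #61 and 0.534 and 1.32 TPM in ntEB GFP #24 and #50, against 2.08, 0.608 and 1.64 TPM in control EB #13, #17 and #37. The groups overlapped, and each held lines with little and lines with more of this RNA. The log2 difference was 0.28 ± 0.71 (SE, n = 3 and 3) for ntEB WT and -0.55 ± 0.79 (n = 2 and 3) for ntEB GFP, with adjusted p = 0.992 and 0.772 by limma. Of 16621 genes, 0.00602% were called in ntEB WT and 0.0120% in ntEB GFP. Without the filter 0 of the 12 members were called by limma in either comparison. An unadjusted p under 0.05 was likewise reached by 0 members, against 3.96% of all genes in ntEB WT and 10.2% in ntEB GFP.

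EBs were then compared with the stem cells they came from. PCDHB14 rose in EBs of control and ntESC WT lines, and PCDHB2 fell in EBs of control lines. This was tested in 1 fit of 19 libraries over 16545 genes, in which 3 of the 11 members in both tables passed the filter. PCDHB14 passed it through the EBs, where it is high, and PCDHB2 through the stem cells, where it is high. Values of both in the fit without a filter are therefore given as well.

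PCDHB14 had 0.608 to 2.08 TPM in control EB, against 0.228, 0, 0.338 and 0.0467 TPM in control ESC #13, #15, #17 and #37. In ntESC WT #30, #53 and #61 it had 0.113, 0.394 and 0.0970 TPM, and in ntESC GFP #24, #50, #54 and #55 it had 0.318, 0.568, 0.367 and 0.418 TPM. EB values lay above stem cell values without overlap for control and WT lines, overlapped for GFP lines, and were above the same line's stem cells in 8 of 8 lines. The log2 difference was 2.7 ± 0.61 (SE, n = 3 and 4) in control lines (adjusted p = 0.00156 by limma), 2.62 ± 0.66 (n = 3 and 3) in WT lines (adjusted p = 0.00423) and 0.90 ± 0.70 (n = 2 and 4) in GFP lines (adjusted p = 0.346). These are differences of log2(TPM + 0.1), which understate the change of a gene this low. Control EB against control ESC called 20.7% of all genes higher and 35.9% lower, ntEB WT against ntESC WT 14.3% and 32.1%, and ntEB GFP against ntESC GFP 13.6% and 16.2%. Leaving out any 1 of the 19 libraries kept PCDHB14 past the threshold (adjusted p = 0.00113 to 0.0114 in control lines and 0.00262 to 0.0225 in WT lines by limma). Without a filter the adjusted p of PCDHB14 was 0.00159 in control lines (0.00112 to 0.0116 without any 1 library), 0.0045 in WT lines (0.00268 to 0.0234) and 0.37 in GFP lines by limma.

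PCDHB2 had 0.542, 0.322 and 0.168 TPM in control EB #13, #17 and #37, against 1.23 to 1.62 TPM in control ESC. It had 0.203, 0.0392 and 0.783 TPM in ntEB WT #30, #53 and #61, and 1.16 and 0.0313 TPM in ntEB GFP #24 and #50. EBs were below the same line's stem cells in 7 of 8 lines, the exception being line #24. The summed pluripotency genes of line #24 were 5868 TPM in its EB and 9084 TPM in its stem cells. Their part in the level of PCDHB2 was not tested. The log2 difference was -1.83 ± 0.69 in control lines (SE, n = 3 and 4, adjusted p = 0.0327 by limma), -1.44 ± 0.74 in WT lines (adjusted p = 0.121) and -1.51 ± 0.78 in GFP lines (adjusted p = 0.154). Without a filter the adjusted p of PCDHB2 was 0.0366 in control lines (0.0102 to 0.139 without any 1 library), 0.135 in WT lines and 0.172 in GFP lines by limma. With the filter, the call in control lines was lost without control EB #17 (adjusted p = 0.0704) or #37 (0.125) and without control ESC #13 (0.0654), #15 (0.0506), #17 (0.0537) or #37 (0.0549), and with the line as a block in the 16 libraries of paired lines (0.06 by limma, and 0.0743 in those libraries with no block). Without ntEB GFP #24 the difference in GFP lines was -3.15 and passed (adjusted p = 0.00554 by limma), and in WT lines PCDHB2 passed without ntEB WT #61 (-2.14, adjusted p = 0.0258) or ntEB GFP #50 (-1.44, adjusted p = 0.0497).

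PCDHGB3 had 0.360, 0.442 and 0.842 TPM in ntEB WT #30, #53 and #61, 0.176 and 0.509 TPM in ntEB GFP #24 and #50, and 0.332, 0.400 and 0.278 TPM in control EB #13, #17 and #37. It was lower in EBs than in the same line's stem cells in 6 of 8 lines. The log2 difference was -0.84 ± 0.54 in control lines, -0.12 ± 0.58 in WT lines and -0.72 ± 0.62 in GFP lines (SE), with adjusted p = 0.2, 0.878 and 0.395 by limma.

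**Figure D2:**
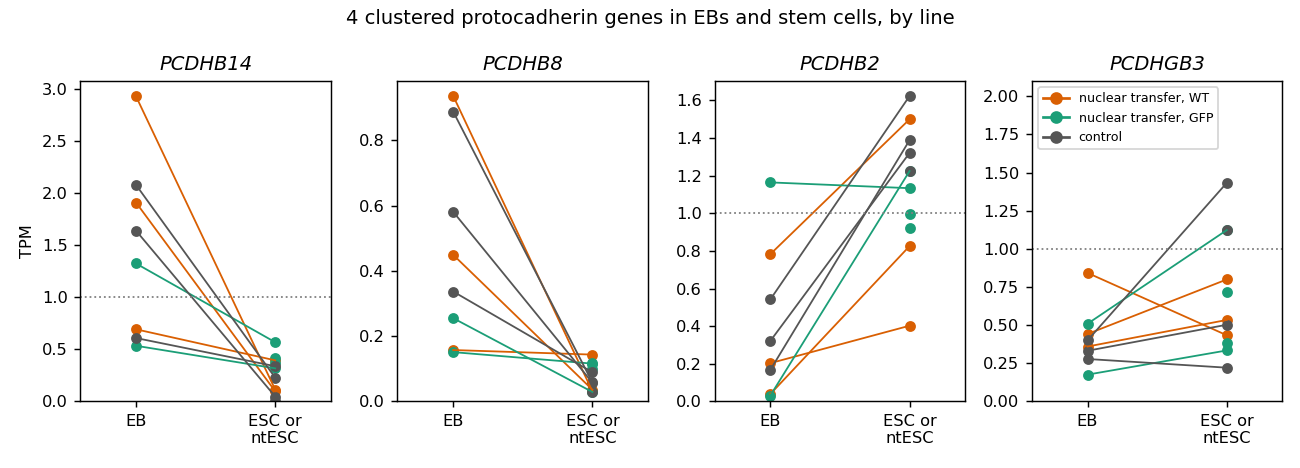
TPM of PCDHB14, PCDHB8, PCDHB2 and PCDHGB3 in EBs (left) and stem cells (right), 1 point per library, with a line joining the EB and the stem cells of a cell line and a dotted line at 1 TPM. The vertical scales differ between genes. PCDHB14 and PCDHB8 are above the stem cells in 8 of 8 lines, and PCDHB2 is below them in 7 of 8.

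The members below the filter could be read only in a fit without it, over 21181 genes, in which 3 of 11 members were higher and 2 lower in control EB than in control ESC, against 18.0% and 29.7% of all genes. PCDHB8 had 0.449, 0.158 and 0.937 TPM in ntEB WT #30, #53 and #61, 0.255 and 0.151 TPM in ntEB GFP #24 and #50 and 0.888, 0.581 and 0.337 TPM in control EB #13, #17 and #37. At the stem cell stage it had 0.0309 to 0.144 TPM in ntESC WT, 0.0289 to 0.117 TPM in ntESC GFP and 0.0303 to 0.0893 TPM in control ESC. All 8 EB libraries were thus above all 11 stem cell lines. In this fit PCDHB8 was higher in control lines (log2 difference 2.08 ± 0.43, adjusted p = 0.000855 by limma) and in WT lines (1.69 ± 0.46, adjusted p = 0.00822), and it stayed past the threshold without any 1 library.

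PCDHB11 had 0.0796 to 0.221 TPM in control EB, against 0 in 4 of 4 control ESC lines, and was called higher (log2 difference 1.26 ± 0.35, adjusted p = 0.00771 by limma without a filter, and up to 0.046 without any 1 library). PCDHB6, which was also at 0 in those lines, had 0.263, 0 and 0.0754 TPM in control EB #13, #17 and #37, and missed the threshold (0.89 ± 0.38, adjusted p = 0.0617), but passed without control EB #17 (1.33, adjusted p = 0.00929) or ntEB WT #61 (0.0473). PCDHA2 had 0.144, 0.0925 and 0 TPM in control EB, against 0.149 to 0.415 TPM in control ESC. It was called lower (-0.995 ± 0.398, adjusted p = 0.0495 by limma without a filter), a call lost on leaving out 13 of the 19 libraries. In the comparison these were control EB #17 (adjusted p = 0.0708) and #37 (0.259) and control ESC #13 (0.139), #15 (0.0743) and #17 (0.0684), and in other groups any of the 7 ntESC lines or ntEB WT #53 (0.0501 to 0.0577).

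In the same fit 2 of 11 members, PCDHB8 and PCDHB14, were higher and 0 lower in ntEB WT than in ntESC WT, against 12.3% and 25.0% of all genes. In ntEB GFP 0 were higher and 0 lower than in ntESC GFP, against 11.1% and 12.0% of all genes. There 0 of the 11 had an unadjusted p under 0.05, against 36.2% of all genes. Without ntEB GFP #24, PCDHB2 and PCDHB3 passed there as lower in EBs. In WT lines PCDHA2 passed as lower without ntEB WT #30 (-1.28, adjusted p = 0.0436 by limma), and PCDHB11 as higher without ntEB WT #53 (1.28, adjusted p = 0.0114). The median log2 difference over the 11 members was 0.12 in WT lines, 0.06 in GFP lines and 0.33 in control lines, against -0.22, -0.07 and -0.20 over all genes. PCDHB3, PCDHB4, PCDHB5 and PCDHB13 were not called in any of the 3 comparisons, and in EBs PCDHB3 ranged up to 0.306 TPM, PCDHB4 up to 0.419 TPM, PCDHB5 up to 0.0713 TPM and PCDHB13 up to 0.844 TPM. PCDHB12 had 0.0218 to 0.415 TPM in ntEB WT and 0.0590 and 0.122 TPM in ntEB GFP, against 0.0224 to 0.279 TPM in control EB.

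**Figure D3:**
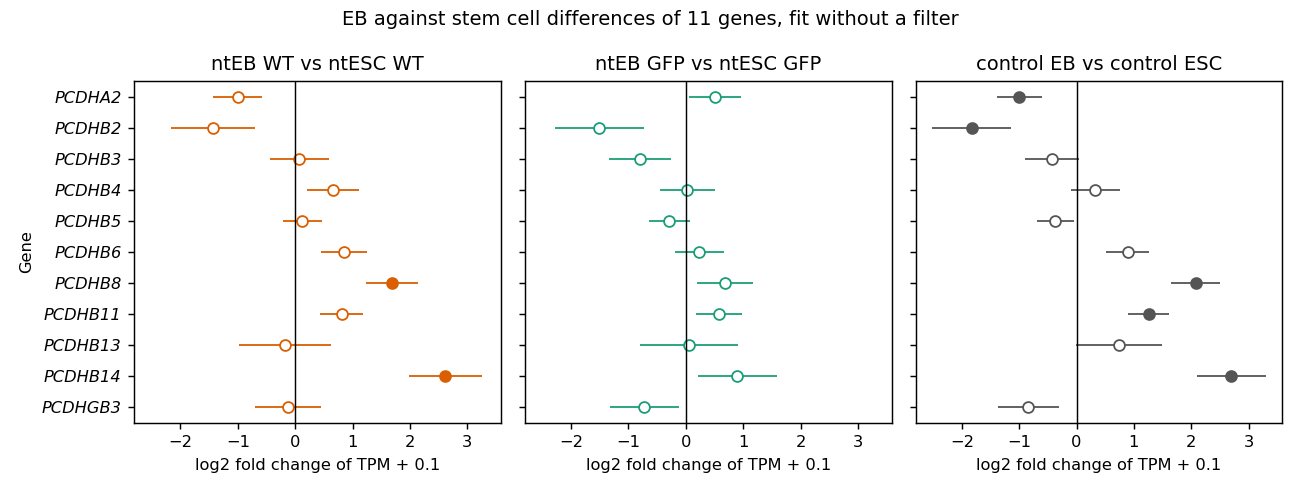
Log2 difference of TPM + 0.1 between EBs and stem cells (horizontal axis, with its standard error) for the 11 members listed in both tables, in WT, GFP and control lines, from the fit without a filter. Filled points passed an adjusted p of 0.05 and open points did not: 2 members are filled in WT lines, 0 in GFP lines and 5 in control lines.

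The change in EBs was also compared between kinds of line. For PCDHB14 the EB response of GFP lines differed from that of control lines by -1.80 ± 0.93 on the log2 scale (SE, adjusted p = 0.374 by limma), and that of WT lines by -0.08 ± 0.90 (adjusted p = 0.989). The differences for PCDHB2 were 0.39 ± 1.01 in WT lines and 0.32 ± 1.04 in GFP lines (adjusted p = 0.949 and 0.9), and for PCDHGB3 0.72 ± 0.80 and 0.12 ± 0.82 (adjusted p = 0.864 and 0.957). None of the 3 members tested was called. Of all genes 0% were called for WT lines (1123 had an unadjusted p under 0.05) and 0.0181% for GFP lines. A call in control lines and none in GFP lines is therefore no test of a difference between them.

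Whether a line kept its own pattern of isoforms was described over the 8 lines with both stages. At 1 TPM, 6 member and line pairs were detected in EBs and 8 in stem cells, and 1 was detected in both (1 of 6 and 1 of 8), PCDHB2 in line #24. Without line #24 the counts were 5 in EBs and 7 in stem cells, with 0 in both. At 0.5 TPM there were 18 pairs in EBs and 14 in stem cells, with 6 in both (6 of 18 and 6 of 14). For comparison, 86.8% to 97.0% of all genes detected at 1 TPM in a line's stem cells were detected in its EB. The sets are unlike, because the members detected in stem cells had only 1.12 to 1.62 TPM, near the threshold. The median of all genes there was 4.15 TPM. A lower share of kept members is thus no sign that these genes hold their pattern less than others. The member shift was of the same kind in most lines: PCDHB14 reached 1 TPM in 5 of the 8 EBs and in 0 of the 8 stem cell libraries, and PCDHB2 lost this level in 5 lines, #13, #17, #37, #50 and #61.

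The ranking of the 11 members by level was then correlated between each EB library and each stem cell library, as a description over 11 values that share their library. The Spearman correlation of an EB with its own line was -0.018 (control #37) to 0.756 (GFP #24), with a median of 0.405, and the median correlation with the other lines had a median of 0.336. The own line ranked first of 8 in 1 line, ntESC WT #53 (0.722). Over 16545 genes the own-line correlation was 0.785 to 0.907, and the own line ranked first in 2 of 8. With each gene centred within its stage, the own line ranked first for the members in 1 of 8, or 0 of 7 without line #24, and for all genes in 3 of 8.

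**Figure D4:**
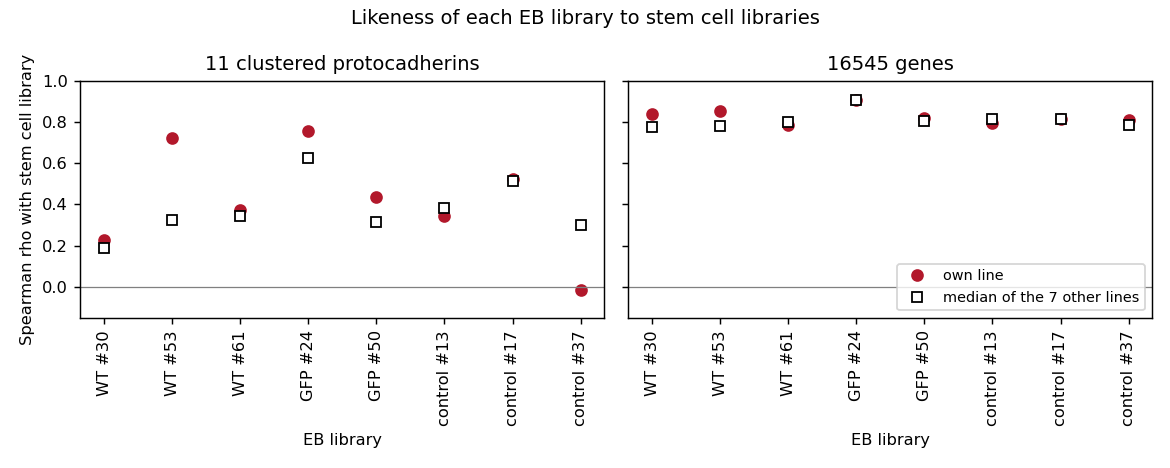
Spearman correlation of each EB library (horizontal axis) with the stem cell library of its own line (filled circles) and the median over the 7 other lines (open squares), over the 11 members (left) and 16545 genes (right). Over the members the own-line values run from -0.018 to 0.756, and over all genes from 0.785 to 0.907.

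A line effect shared by both stages was tested by an F test within the groups. None of the 3 members tested was called, against 0.316% of 16473 genes. The adjusted p from limma was 0.746 for PCDHB2, 0.758 for PCDHGB3 and 0.953 for PCDHB14. Without a filter, 0 of 11 members was called and 0 of 11 had an unadjusted p under 0.05, while 8.93% of all genes had one in the filtered fit.

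The fibroblast was a single library, so its values are given with no test. It had 1.11 TPM of PCDHGB3, 0.927 TPM of PCDHB14, 0.668 TPM of PCDHB2 and 0.647 TPM of PCDHB4, and PCDHA2 and PCDHB1 were listed at 0. PCDHB4, PCDHB5, PCDHB6, PCDHB8, PCDHB11 and PCDHB14 were above all 11 stem cell lines, that is 6 of 12 members, as were 22.7% of all genes. PCDHB4 had the widest gap in TPM to the nearest line, the lines having 0.0179 to 0.223 TPM. PCDHA2 was below every line, and PCDHB2 was below every control ESC line and above ntESC WT #30. These 6 members were also over 2 times the highest control ESC line, though each was under 1 TPM in the fibroblast. By a rule that also asked for 1 TPM on the higher side and a 2-fold distance from the nearest control ESC line, 0 members were higher and 0 lower, against 12.6% and 15.8% of all genes. Only PCDHGB3 reached 1 TPM in the fibroblast, and only PCDHB2 reached it in every control ESC line. No other member could thus be called by the rule, and its counts cannot be set against those shares.

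The order of the members in the fibroblast correlated with that in ntESC lines by a Spearman rho of 0.095 to 0.536, with ntESC GFP #50 and ntESC WT #53 highest, and with that in control ESC lines by -0.081 to 0.27, each over 12 members. The fibroblast order resembled that of ntEB WT by 0.5 to 0.578, that of ntEB GFP by 0.064 and 0.159 and that of control EB by 0.145 to 0.245, over 11 members. Over 16118 genes the fibroblast correlated with ntESC lines by 0.718 to 0.811 and with control ESC lines by 0.733 to 0.769, and ntESC GFP #50 (0.757) was within the control range. These are correlations over few low values of 1 fibroblast culture and were not tested.

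**Figure D5:**
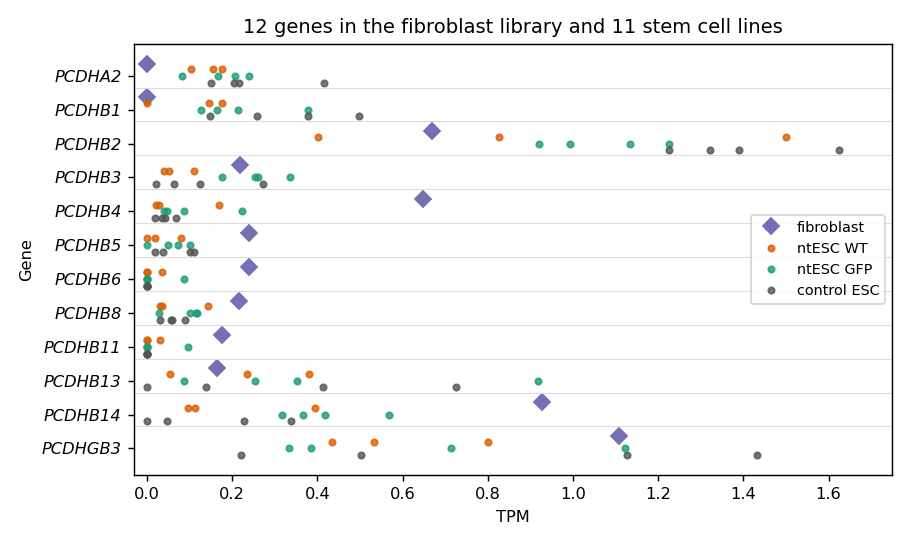
TPM of the 12 members of the stem cell table (rows) in the fibroblast library (diamonds) and in the 3 ntESC WT, 4 ntESC GFP and 4 control ESC lines (points). For PCDHB4, PCDHB5, PCDHB6, PCDHB8, PCDHB11 and PCDHB14 the diamond lies right of all 11 points, and for PCDHA2 it lies left of them at 0.

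The neighbourhood of the members held gene models without a clustered protocadherin symbol. In the RefSeq annotation of calJac240_pri, which is another build than that of the files and was used only for names and order, 35 gene models lay between ZMAT2 and HDAC3, of which 8 were members and 24 had a LOC identifier only. The other 5 members, PCDHA2, PCDHB8, PCDHB13, PCDHB14 and PCDHGB3, are not named in that annotation. Of the 24 models with a LOC identifier, 10 were listed in an expression table. The sources used here give them no other name, so whether any of them is a clustered protocadherin is not known. None was counted as a member, and they were looked up after the members' values were seen.

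LOC100401450, next to TAF7, was the most abundant of them by its mean and exceeded every member except in ntESC WT #61 and control ESC #13 and #37, where PCDHB2 was higher. It had 34.3 TPM in the fibroblast, 15.9, 16.8 and 4.48 TPM in ntEB WT #30, #53 and #61, 11 and 13.9 TPM in ntEB GFP #24 and #50 and 9.09, 8.22 and 6.30 TPM in control EB #13, #17 and #37. It had 1.05 to 5.07 TPM in ntESC WT, 1.26 to 2.97 TPM in ntESC GFP and 1.20 to 2.95 TPM in control ESC. All EBs except ntEB WT #61 were above every stem cell line. The log2 difference between EBs and stem cells was 2.11 ± 0.56 in WT lines, 2.87 ± 0.60 in GFP lines and 2.23 ± 0.53 in control lines (SE, adjusted p = 0.00634, 0.00319 and 0.00198 by limma), and the call in GFP lines was lost without ntEB GFP #50 (0.0752). It was not called between ntESCs and control ESCs (0.57 ± 0.52 for WT and 0.03 ± 0.48 for GFP, adjusted p = 0.535 and 0.983). LOC100896102, which lies between PCDHB12 and TAF7, had 4.35, 2.19 and 1.08 TPM in ntEB WT #30, #53 and #61, against 0.368, 0.230 and 0.158 TPM in the ntESC WT lines of the same numbers (2.75 ± 0.51, adjusted p = 0.000518). It was also called higher in GFP lines (1.65 ± 0.54, adjusted p = 0.0314 by limma), a call lost without ntESC GFP #24 (0.0674) or #55 (0.0577) or ntEB GFP #50 (0.341). In control lines it had 1.74, 0.952 and 0.885 TPM in control EB, against 0.229 to 0.735 TPM in control ESC (1.17 ± 0.48, adjusted p = 0.0468 by limma), a call lost on leaving out 11 of the 19 libraries, among them all 3 control EB and control ESC #15 and #37 (up to 0.186), and without a filter (0.0541). LOC100896102 reached the filter mainly through the EBs, where it is high, and without a filter its adjusted p was 0.000628 in WT and 0.0376 in GFP lines.

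The summed fibroblast and mesenchyme markers were higher in the fibroblast and in every EB than in every stem cell line. All 12 were listed, with 9 to 12 of them at 1 TPM or more in EBs and 7 to 10 in stem cells, and their sum was 45060 TPM in the fibroblast, 46780, 23360 and 2195 TPM in ntEB WT #30, #53 and #61, 14460 and 16590 TPM in ntEB GFP #24 and #50 and 6752 to 12150 TPM in control EB, against 157.6 to 1315 TPM in ntESC WT, 300.3 to 424 TPM in ntESC GFP and 289.0 to 497.5 TPM in control ESC. In control lines 9 of the 12 were called higher in EBs and 2 lower by limma, against 20.7% and 35.9% of all genes. THY1 fell from 22.4 to 59.9 TPM in control ESC to 0.932 to 1.78 TPM in control EB, and PDGFRB from 28.4 to 46.4 TPM to 9.57 to 16.2 TPM. Counts were 7 and 0 in WT lines (14.3% and 32.1% of all genes) and 9 and 0 in GFP lines (13.6% and 16.2%). The part of fibroblast or mesenchyme cells in the members' levels was not tested, and in bulk RNA fewer cells of a type and less RNA per cell cannot be told apart. Within ntEB WT the 2 members higher in all 8 lines, PCDHB14 and PCDHB8, did not follow the order of this sum. ntEB WT #61, with the lowest sum among EBs, had 1.91 TPM of PCDHB14 and 0.937 TPM of PCDHB8. ntEB WT #53, at 23360 TPM, had 0.692 and 0.158 TPM of them, and ntEB WT #30, with the highest sum, had 2.93 and 0.449 TPM. Within control EB and within ntEB GFP, PCDHB14 followed the order of the sum and PCDHB8 did not. Control EB #17, #37 and #13 had sums of 6752, 12130 and 12150 TPM. PCDHB14 there was 0.608, 1.64 and 2.08 TPM, and PCDHB8 was 0.581, 0.337 and 0.888 TPM. In ntEB GFP #24 and #50 PCDHB14 was 0.534 and 1.32 TPM, and PCDHB8 was 0.255 and 0.151 TPM.

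Non-clustered protocadherins, which are separate genes outside the clustered arrays, differed widely in level. PCDH18 (up to 142 TPM), PCDH7 (65.3 TPM) and PCDH1 (52.7 TPM) far exceeded every member, whereas PCDH8 (2.82 TPM), PCDH12 (1.88 TPM) and PCDH10 (1.28 TPM) stayed below the highest member value. PCDH1 had 0.473 to 1.01 TPM in control EB, against 40.3 to 52.7 TPM in control ESC (log2 difference -5.71 ± 0.49, adjusted p = 1.11e-06 by limma). PCDH17 had 3.30 to 6.68 TPM in control EB, against 0.0883 to 1.02 TPM in control ESC (3.24 ± 0.80, adjusted p = 0.00282). Of the 7 tested in that fit, 1 was higher and 3 lower in control lines (20.7% and 35.9% of all genes). The counts were 1 and 1 in WT lines (14.3% and 32.1%) and 1 and 1 in GFP lines (13.6% and 16.2%). Of the 6 tested between ntESCs and control ESCs 0 were called by limma, against 0.0931% of all genes in ntESC WT and 0.441% in ntESC GFP. At an unadjusted p under 0.05, 1 passed in ntESC WT and 0 in ntESC GFP, against 19.3% and 13.8% of all genes.

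Genes that regulate the clusters or act with their proteins were read from a list of 25, of which 24 were tested. In EBs 1 was higher and 17 lower in control lines, 1 and 17 in WT lines and 1 and 8 in GFP lines. Of all genes, 20.7% were higher and 35.9% lower in control lines, 14.3% and 32.1% in WT lines and 13.6% and 16.2% in GFP lines. The share of regulators lower in EBs was above that of all genes in each comparison, and the share of higher ones was below it. Many genes of all kinds shifted between the stages, and the list was not tested as a set. The higher one was TET2, which oxidizes methylated DNA, in each. The counts in GFP lines rest on 2 EB libraries. Without ntEB GFP #50 the log2 difference there was 1.38 for TET2 and -0.46 for CTCF. CTCF, the DNA-binding architectural protein that directs promoter choice in the clusters, had 35.5 to 35.7 TPM in control EB, against 80.6 to 100.4 TPM in control ESC (log2 difference -1.34 ± 0.20, adjusted p = 5.5e-05 by limma). DNMT3B, the DNA methyltransferase that methylates clustered protocadherin promoters in the mouse embryo, had 33.3 to 52.7 TPM in control EB, against 253 to 549 TPM in control ESC (-3.34 ± 0.94, adjusted p = 0.00658).

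EHMT2, which encodes G9a, the enzyme whose inhibitor was given to the cloned embryos, had 26.7 to 29.5 TPM in control EB, against 131 to 258 TPM in control ESC (-2.68 ± 0.52, adjusted p = 0.000489 by limma). SMCHD1, a repressor of the clusters known from mouse, was lower as well (-1.08 ± 0.25, adjusted p = 0.00184). SETDB1, an H3K9 methyltransferase, had 24.3 to 33.7 TPM in control EB, against 39.7 to 44.8 TPM in control ESC (-0.54 ± 0.16, adjusted p = 0.00784), and was not called without control EB #37 (0.0528). ntEB GFP #24 had 59.8 TPM of CTCF, 256 TPM of EHMT2 and 590 TPM of DNMT3B, above the other EBs, where these had at most 38.5, 29.5 and 52.7 TPM. The cohesin subunit SMC3 (-1.21 ± 0.14), the protease ADAM10 (-1.46 ± 0.16) and the G9a partner EHMT1 (-1.58 ± 0.20) also fell in control EB.

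Between ntESCs and control ESCs, 0 of the 24 were called by limma in ntESC WT, where 8 had an unadjusted p under 0.05, and 1 was called in ntESC GFP, where 4 did, against 19.3% and 13.8% of all genes. In ntESC WT, EHMT2 had 63.8, 73.7 and 174 TPM in lines #30, #53 and #61, against 131 to 258 TPM in control ESC (log2 difference -0.92 ± 0.34, adjusted p = 0.206 by limma), and DNMT3B had 97.1, 136 and 465 TPM (-1.14 ± 0.47, adjusted p = 0.233). Lines #30 and #53 were the low ones for both, as for PCDHB2. WASF1, a subunit of the actin-regulating WAVE complex, had 15.7 to 21.2 TPM in ntESC GFP, against 30.8 to 39.9 TPM in control ESC (-0.91 ± 0.14, adjusted p = 0.0301), a call lost on leaving out control ESC #13, #15 or #17 or any ntESC GFP line (adjusted p up to 0.108). CTCF, SMCHD1 and SETDB1 had log2 differences of -0.20 to 0.15 in both comparisons and were not called. Of 9 tested genes that flank the clusters in human, 0 were called between ntESCs and control ESCs by limma (2 had an unadjusted p under 0.05 in ntESC WT and 0 in ntESC GFP). In EBs 6 were lower in control lines, 7 in WT lines and 3 in GFP lines, against 35.9%, 32.1% and 16.2% of all genes.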

How the data were processed

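Poly(A) RNA of 20 marmoset cultures was sequenced from stranded libraries, and the authors trimmed reads with fastp, mapped them to calJac4 with STAR (1 location, at most 1 mismatch), counted them with featureCounts and deposited TPM per gene. The study's methods leave out the sex chromosomes, but 3 genes that RefSeq places there were in each table and were dropped. Neither the annotation nor the strand setting used in counting is stated in the sources. TPM keeps no total depth, and only a relative depth was estimated, from the step size of values under 0.5 TPM.

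Two-sided tests were made on log2(TPM + 0.1) with limma (version 3.58.1, R 4.3.3, trended eBayes), keeping genes whose mean reached 0.5 TPM and adjusting p-values by Benjamini-Hochberg over all of them (threshold 0.05), in 3 fits, of 11 stem cell libraries, 8 EB libraries and all 19, checked on simulated data. Nothing says that lines came from separate animals, so p-values measure the spread between lines, pooled over all groups of a fit. Line numbers name the same cell line, and deviations of paired libraries correlated at -0.084 (line #24) to 0.318. Fits with the line as a block, other pseudocounts (0.01 and 1), no filter, quantile normalization, a 2-fold rule of group means and each library left out were alternatives. Descriptions were made in Python 3.11.15 (pandas 2.3.3, scipy 1.17.1) and drawn with matplotlib 3.10.9.

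Named with values were members called in a comparison, the 4 highest per cluster and stage, and 5 regulators with up to 4 others that were called; the genes of the cluster interval, the unfiltered calls and the remaining members were added after their values were seen. The members and lists were chosen with earlier results of these data known. 1 listed regulator or partner is not reported here. Sequences and coordinates were not used here.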

Additional observations from a re-analysis of the deposited data

Results flagged for a closer look

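In 22 groups of 4 lines, the lines were checked for one far from the others (Dixon's criterion), and 2 lines stood out. In both groups the other 3 lines were at 0, so that any value above 0 meets the criterion, and the rate of about 1 in 20 groups that chance gives does not apply. PCDHB6 had 0.0872 TPM in ntESC GFP #54 and was listed at 0 in the other ntESC GFP lines. PCDHB11 had 0.0951 TPM in ntESC GFP #50 and was listed at 0 in the other ntESC GFP lines.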

How the results depend on the processing

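Read counts were not known, 10 of 13 members never reached 1 TPM, and the fibroblast and every line are single libraries. The number of members called in control EB against control ESC was 2, and it was 1 with a pseudocount of 0.01 TPM, 5 without a filter and 1 with the line as a replicate block (16 libraries, and 1 in those libraries with no block, chosen after seeing the data). In ntEB WT against ntESC WT it was 1, and 2 without a filter. In ntEB GFP against ntESC GFP it was 0, and 1 (PCDHB2) with quantile normalization, which moved the median difference of all genes by 0.19 in control, 0.26 in WT and -0.10 in GFP lines. The same normalization made 44.3% of all calls in WT lines higher in EBs, against 30.9% without it. PCDHB14 was 2.88 in control and 2.77 in WT lines with it, and PCDHB2 -1.52 in control lines. The cause of these shifts was not tested, except that the unfiltered fit tests more members.

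The 2-fold rule of group means passed 3 members in ntESC WT, 5 in ntESC GFP, 3 in ntEB WT and 4 in ntEB GFP, where limma called 0, beside 21.0%, 14.1%, 24.4% and 36.4% of all genes. In both ntESC comparisons these included PCDHB6 and PCDHB11, which were at 0 in every control ESC line. Their ratios rest on the 0.001 TPM added to each mean. Member and library pairs at 1 TPM numbered 17, against 42 at 0.5 TPM and 2 at 2 TPM, and pairs kept in EB and stem cells 1, against 6, 0 and, without line #24, 0. Leaving out 1 library gave 0 to 1 called members in ntESC WT, 0 in ntESC GFP and in both EB comparisons, 1 to 2 in control EB against control ESC, 1 to 2 in ntEB WT against ntESC WT, 0 to 1 in ntEB GFP against ntESC GFP, and 0 in both EB responses and in the line effect. Without a filter, and chosen after seeing the data, these ranges were 3 to 6 in control, 2 to 3 in WT and 0 to 2 in GFP lines. Against the same 16 libraries without it, the block changed no member's call, and no member called reversed under any alternative.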
